A study of Drosophila melanogaster with 2 samples.

Results

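Intergenic regions from a pulldown of the dsf-eGFP fusion protein were examined. The set holds 414 summits that lay outside every annotated gene and more than 1000 bp from every annotated transcription start site (TSS). They were selected on the pooled signal value and on position, from the 5000 strongest regions of the pooled list, and made up 8.28% of these. That list held 29975 regions on the chromosome arms and is named as peaks and background together. A summit in it is thus not by itself an established binding site. The chromatin came from whole Drosophila melanogaster larvae in the wandering stage of their last instar, males and females pooled, of a transgenic line carrying dsf with green fluorescent protein at its C terminus. The tagged protein was pulled down with an anti-GFP antibody after sonication and sequenced (ChIP-seq) in 1 group of 2 biological replicates, numbered 3 and 4. A control experiment that the labels name was not analysed here, so no region was set against a mock pulldown, and whole larvae mix all tissues, so a region cannot be assigned to a cell type. The age of the larvae is given as unknown. Read counts are not part of the lists, so depth is unknown and no interval here rests on it.

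The gene dsf (dissatisfaction) belongs to the tailless group of nuclear receptors, has no known ligand, and is known from work on courtship and other sex-specific behaviours and on the neurons behind them. Intergenic sequence in the fly holds many enhancers, short stretches that bind transcription factors and act on promoters at a distance, and also insulators and promoters that have not been annotated. The nearest gene to an intergenic summit is a label of position and need not be the gene it acts on.

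The strongest intergenic summits lay in sequence rich in A and T. The sequence from 50 bp before to 50 bp after the summit is shown for 10 of the 15 strongest, because the results on sequence turn on this richness. Each is named by the gene with the nearest protein-coding TSS. Capitals mark stretches covered by any of the 32 hexamers of A and T alone that were more frequent at summits than in flanks (test given with the hexamers). The sequences are the plus strand of the RefSeq dm6 assembly (release 6).
CG31668 (chr2L:2202370-2202470, + strand): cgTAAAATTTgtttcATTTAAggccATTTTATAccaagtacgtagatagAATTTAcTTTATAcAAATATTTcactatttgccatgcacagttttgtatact
CG43245 (chr3L:10776520-10776620, + strand): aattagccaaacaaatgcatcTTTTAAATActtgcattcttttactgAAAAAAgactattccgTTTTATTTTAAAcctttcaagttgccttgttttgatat
SrpRbeta (chr3L:8702692-8702792, + strand): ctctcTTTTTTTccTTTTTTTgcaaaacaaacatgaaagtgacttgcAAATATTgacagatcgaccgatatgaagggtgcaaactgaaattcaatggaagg
kay (chr3R:29763282-29763382, + strand): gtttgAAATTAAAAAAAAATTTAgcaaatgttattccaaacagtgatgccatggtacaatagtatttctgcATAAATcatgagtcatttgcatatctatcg
DNAlig3 (chr3R:12403075-12403175, + strand): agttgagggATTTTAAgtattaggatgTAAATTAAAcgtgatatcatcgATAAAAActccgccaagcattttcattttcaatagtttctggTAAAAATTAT
CG13898 (chr3L:802883-802983, + strand): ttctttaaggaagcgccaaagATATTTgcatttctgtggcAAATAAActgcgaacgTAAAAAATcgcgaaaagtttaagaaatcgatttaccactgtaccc
Tollo (chr3L:15260705-15260805, + strand): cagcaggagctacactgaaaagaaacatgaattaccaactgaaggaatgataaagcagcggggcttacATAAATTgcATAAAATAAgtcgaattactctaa
CG6163 (chr3L:11353178-11353278, + strand): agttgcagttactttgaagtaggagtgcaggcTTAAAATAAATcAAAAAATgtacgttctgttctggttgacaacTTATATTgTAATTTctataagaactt
CG13898 (chr3L:781334-781434, + strand): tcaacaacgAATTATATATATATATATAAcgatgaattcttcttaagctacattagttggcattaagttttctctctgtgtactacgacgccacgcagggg
CG15625 (chr2L:4888077-4888177, + strand): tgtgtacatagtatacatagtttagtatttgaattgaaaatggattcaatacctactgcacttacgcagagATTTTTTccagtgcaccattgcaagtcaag
The share of A and T in these windows ran from 63.4% to 73.3%, against a median of 58.4% in sequence that meets the same location rule. In the other 5 of the 15, which are not shown, it ran from 59.4% at the yip3 summit, close to that median, to 76.2% at the RYBP summit. A long run of alternating A and T stood in the second CG13898 window, and runs of A or T in the windows of kay and SrpRbeta. The CG15625 window held only 2 matches to the marked words.

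The pooled signal value, the authors' own score for a region, chose the members and is given as a description with no test. It ran from 41.5 to 486.4 over the 414 members, with a median of 57.0. The median was 54.8 for the 1364 genic summits of the same 5000 (inside a gene and away from promoters), 63.0 for the 3222 promoter summits (within 1000 bp of a TSS) and 20.9 for the 3871 intergenic summits ranked below 5000. The shorter list that passed the authors' irreproducible discovery rate (IDR) procedure, which keeps regions that replicates rank alike, held 124 of the members (29.95%), against 25% of genic and 38.6% of promoter summits. Because that list takes the strongest pooled regions, it splits the members by signal, at 73.6 just inside and 73.5 just outside.

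At the edges of the rule, the weakest member (near Sfp84E, rank 4989) had a signal value of 41.49 and the first intergenic summit left out (near Zir, rank 5011) 41.39. The member closest to a TSS lay 1008 bp from that of CG34289, and a summit 998 bp from that of CG11964 was left out. Members and excluded summits at both edges had nearly the same values.

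The 2 strongest members stood apart. The summit nearest CG13323 (2R 13035218 to 13035463, 11922 bp downstream of its TSS and past the end of the gene) had a pooled signal value of 486.4, with 166.2 in replicate 3 and 317.7 in replicate 4. The summit nearest CG31668 (2L 2202261 to 2202536) had 467.9, with 204.3 in replicate 3 and 254.6 in replicate 4. Both ranked within the first 30 arm regions of each replicate. The CG13323 summit ranked 30 in replicate 3 and 5 in replicate 4, and the CG31668 summit ranked 14 in replicate 3 and 20 in replicate 4.

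Next came summits near genes of mixed roles. The CG43245 summit (3L 10776458 to 10776680) had a pooled signal value of 306.9, and the one nearest SrpRbeta, a subunit of the signal recognition particle receptor, 253.5. A summit 2663 bp upstream of kay, which encodes the fly Fos protein, had 197.8, with 87.2 in replicate 3 and 107.8 in replicate 4. The summit nearest Tollo, a Toll-like receptor gene, lay 25136 bp from its TSS and had 180.8. A summit nearest RYBP, which encodes a Polycomb-associated protein, had 177.7. The strongest also included summits nearest yip3 (204.9), Achl (171.9), CG6163 (166.0), Obp56h of the odorant-binding protein family (165.9) and CG15625 (163.1), and 2 summits nearest CG13898 (187.1 and 165.8). Of the 15 strongest, only the summit nearest DNAlig3, a DNA ligase gene (signal value 190.9, 112.8 in replicate 4), had no match in replicate 3. Ranked by the worse of their replicate ranks, the first 10 members all came from these 15, led by the CG31668, CG13323, CG43245 and kay summits.

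Most members were found in both replicates' own lists, but fewer ranked among the strongest in both. Those lists held 29974 regions on the arms in replicate 3 and 29973 in replicate 4. A match at any rank is thus a loose condition. A summit within 100 bp was present at any rank for 362 members (87.4%) in replicate 3 and 394 (95.2%) in replicate 4, and 3 members had none in either. Among a replicate's own 5000 strongest, the share was 64.0% in replicate 3 and 71.0% in replicate 4, a mean of 67.5% ± 4.95 (SD, n = 2). Both replicates placed 179 members (43.2%, exact 95% interval 38.4 to 48.2) there, 86 were there in replicate 3 alone, 115 in replicate 4 alone and 34 (8.21%) in neither. The pooled list was made from both replicates, so these shares are partly built in. For comparison, 39.4% of genic and 44.2% of promoter summits were among the strongest 5000 of both, and both values lie inside the members' interval. Of members in the IDR-thresholded list 90.3% met that condition, against 23.1% of the other members. That list splits the members by pooled signal, so this gap is largely built in and does not measure reproducibility.

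Replicate 4 gave the higher values. Over the 345 members matched in both, its signal value was a median 1.46 times that of replicate 3, against 1.395 for genic and 1.43 for promoter summits, and the pooled value came to a median 1.02 times both replicate values added together. Spearman's rho between the replicates was 0.41 over those 345 members, 0.45 over 1073 genic and 0.58 over 2328 promoter summits. Among the 229 matched members outside the IDR-thresholded list it was -0.25. These are descriptions across regions that share the libraries. Choosing members on pooled signal narrows the range of their sums, most of all outside the IDR-thresholded list. Pooled signal there ran only from 41.5 to 73.5.

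**Figure D1:**
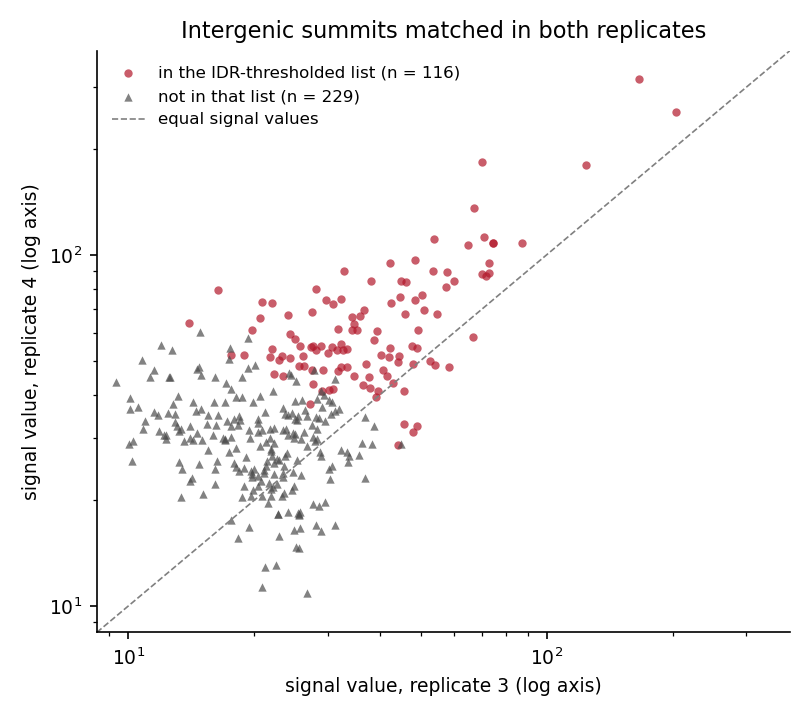
Signal value of each of the 345 members matched within 100 bp in both replicates, replicate 3 on the x axis and replicate 4 on the y axis (log axes), with members in the IDR-thresholded list as red circles and the others as grey triangles. Most points lie above the dashed line of equal values, as the median ratio of 1.46 gives. The grey points form a band between the floor on pooled signal and the cut of the IDR-thresholded list.

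The members were mostly regions of 1 fixed width, 404 bp, and mostly unique in sequence near the summit. The exceptions in width were 7 narrower regions, all among the strongest members, including the 5 strongest. Of the 414, 399 had no 25-base word within 100 bp of the summit with another copy in the whole genome sequence. In no member did the share of words with copies pass 41.2%. Soft-masked repeats held 105 summits (25.4%), close to the 27.4% of sequence meeting the location rule. Annotated transposable elements held 2, a rover element near CG14621 and an INE-1 element near fuss. Neighbouring member regions overlapped in 11 pairs, whose summits were at least 199 bp apart, so 22 members share sequence with another.

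Members lay nearer to genes than open intergenic sequence does, but about as near as weaker intergenic summits. The median distance to the nearest TSS was 3509 bp for members, 3748 bp for the intergenic summits ranked below 5000 and 6728 bp for the 33.4 Mb that meet the location rule. Only 10 members (2.42%) were over 20 kb from a TSS, against 3.56% of the weaker summits and 23.2% of that sequence. Each member lay in an interval free of genes with a median length of 11551 bp, against 22286 bp for the sequence. That sequence includes long stretches with no gene, up to 710734 bp, and the longest interval with a member was 191812 bp.

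**Figure D2:**
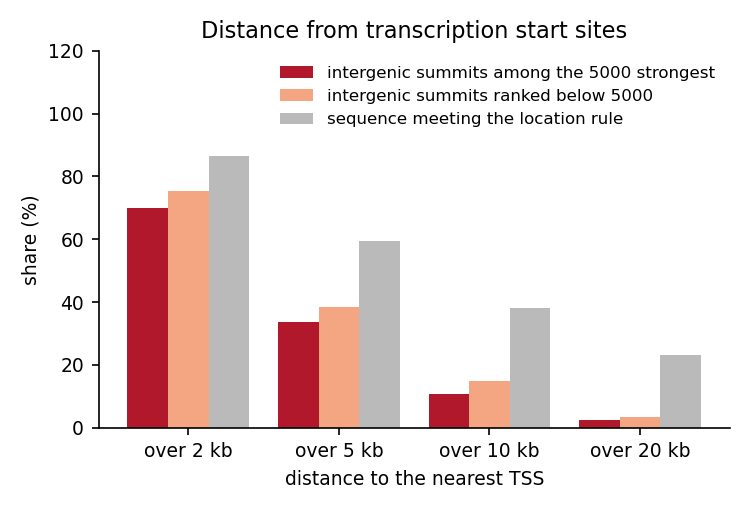
Share (y axis, %) of the 414 members (red), of the 3871 weaker intergenic summits (orange) and of sequence meeting the location rule (grey) that lay over 2, 5, 10 or 20 kb from the nearest TSS (x axis). Over 5 kb the shares were 33.8%, 38.6% and 59.5%.

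The layout of the flanking genes was close to that of the sequence around. Divergent genes flanked 22.5% of members (19.3% of the sequence), convergent genes 27.5% (26.8%) and genes in tandem 50% (49.9%). The nearest TSS belonged to a protein-coding gene for 265 members, to a non-coding RNA for 144, to a tRNA for 4 and to a pseudogene for 1. The summit lay upstream of that TSS for 240 members (58.0%). This share was not counted for the sequence, and the rule leaves out positions inside genes, which lie downstream of a TSS.

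Members were unevenly spread over the arms. Arm 3L held 152 (36.7%, exact 95% interval 32.1 to 41.6), or 18.2 per Mb of sequence meeting the location rule, of which it has 24.97%. The X chromosome held 29 (7.00%, 4.74 to 9.91), or 6.01 per Mb, with 14.4% of the sequence. The shares of 2L (18.6%) and 3R (22.0%) were close to their sequence (18.3% and 20.9%), while 2R held 14.0% with 20.7% of the sequence. The small chromosome 4 had the highest density, 32.2 per Mb, from 7 members (1.69%, 0.682 to 3.45) on 0.218 Mb, or 2.60 times its share of the sequence. The weaker intergenic summits had a like spread, with 32.0% on 3L and 7.98% on X. Over all 5000 regions 3L held 22.2% and X 14.4%, and among genic summits 20.4% and 18.9%. In each replicate's own 5000 strongest, intergenic summits on 3L were 33.96% in replicate 3 and 37.2% in replicate 4. Position chose the members, so these shares carry no test.

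**Figure D3:**
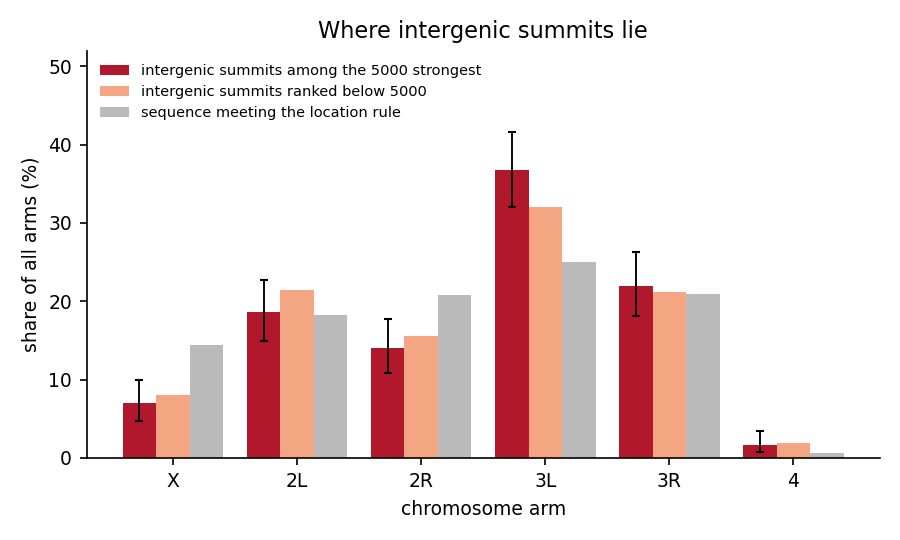
Share of all arms (y axis, %) by chromosome arm (x axis) for the 414 members (red, bars with exact 95% intervals), the 3871 weaker intergenic summits (orange) and sequence meeting the location rule (grey). Arm 3L is above its share of sequence and X below it for both sets of summits.

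Members were chained into clusters by a rule chosen after the data were seen. With summits at most 20 kb apart joined, 256 members (61.8%) fell in 81 clusters and 158 stood alone. No such chaining was made for other summits or for the sequence, so 61.8% has no background share beside it. Clusters of 5 or more numbered 8, held 68 members and lay on 3L (6 clusters, 54 members) and 3R. Leaving out those 68 members, 54 of them on 3L, had to lower the share of 3L, which became 28.3% of the rest. Its 24.97% of sequence still counts the stretches of those clusters, so these shares differ in scope.

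The cluster around hry, the hairy gene of segmentation and of bristle patterning, whose product is a basic helix-loop-helix repressor, spanned 61.9 kb with 10 members, 7 of them in the IDR-thresholded list. Its strongest summit (signal value 253.5) is the one nearest SrpRbeta. The 5 members nearest hry itself had signal values of 45.8 to 88.1 and lay 3062 to 20619 bp from its TSS, on both sides of the gene. A cluster of 10 next to hid, which encodes an activator of programmed cell death, spanned 50.5 kb on 3L, and its strongest summit (146.3) was nearest CG7320. It also held 4 members nearest CheA75a, of a chemosensory protein family, at 10880 to 19593 bp.

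A cluster of 9 spanned 62.5 kb in a stretch that includes emc, whose product blocks basic helix-loop-helix factors. All 9 were among the 5000 strongest of replicate 3, and 8 in replicate 4. Its members were nearest CG13898 (5), hng3 (4 over all arms, 2 in this cluster) and Sf3b3, a splicing factor gene. The cluster with the most members, 12 near CG5151, CG33795 and CG33687, was weaker, with a highest signal value of 98.3, 1 member in the IDR-thresholded list, and 5 members among the 5000 strongest of replicate 3 against 9 in replicate 4. CG43245 was the protein-coding gene nearest to the most members, 8, at 4645 to 31845 bp, and these 8 form a cluster of their own. On 3R, clusters of 7 lay among the gustatory receptor genes Gr93a, Gr93b and Gr93d and near CG18404, which was nearest to 5 members. The smallest of the 8 held 5 members nearest CG6163. Outside these clusters, noc, a zinc finger gene, and Ids, an iduronate sulfatase gene, were each nearest to 4 members.

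**Figure D4:**
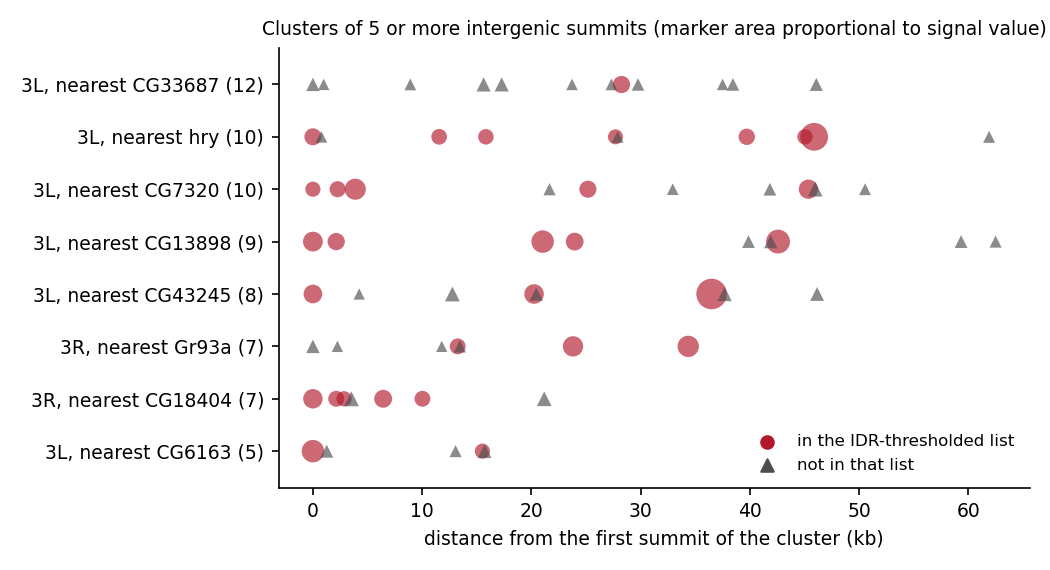
Members of the 8 clusters of 5 or more, by distance from the first summit of each cluster (x axis, kb), 1 row per cluster named by its arm and the gene nearest to most members, with the number of members in parentheses. Marker area is proportional to the pooled signal value, and red circles are in the IDR-thresholded list.

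Genes on any of 12 lists, of regulation, signalling, metabolism and markers of tissues, were the nearest protein-coding TSS of 60 members (14.5%, exact 95% interval 11.2 to 18.3), and these were 46 different genes. The same lists took 7.84% of the 5000, 13.1% of genic summits, 4.75% of promoter summits, 12.8% of the weaker intergenic summits and 6.75% of sequence meeting the location rule. Genic and weaker intergenic shares lie inside the members' interval. No set test was made.

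The lists ranged from 13 to 86 genes, so counts are not ranked between them. Sequence meeting the location rule gave 1.96% for developmental factors, 1.99% for homeodomain genes and 0.995% for signalling genes. The homeodomain value lies inside the members' interval given below, and the others lie under theirs. Developmental factors other than homeodomain and nuclear receptor genes were nearest to 23 members (5.56%), against 2.36% of the 5000 and 4.21% of the weaker intergenic summits, which lies inside the members' interval of 3.55 to 8.22. Besides kay and hry, they included foxo, the effector of insulin signalling (signal value 100.1, 3316 bp upstream, 47.96 in replicate 3 and 48.9 in replicate 4), and Atf3, a bZIP factor gene (91.4, 1939 bp upstream). Homeodomain genes were nearest to 10 members (2.42%), against 0.740% of the 5000 and 3.46% of the weaker summits, inside the members' interval of 1.16 to 4.40. The strongest was zfh2 (122.9, 3927 bp upstream), followed by the POU gene vvl (79.4), the Hox gene Antp (74.4) and the head gene ems (65.6). The farthest member from any protein-coding TSS, at 57546 bp, was one of 3 nearest vvl.

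Signalling genes were nearest to 16 members (3.86%), against 1.66% of the 5000 and 2.12% of the weaker intergenic summits. The value of the weaker summits is just under the members' interval of 2.22 to 6.20, and the genic share of 2.79% lies inside it. Such intervals are not adjusted for the number of lists. The strongest of the 16 was 3675 bp upstream of ex, a gene of the Hippo growth pathway. It had a signal value of 137.8, with 57.5 in replicate 3 and 80.9 in replicate 4. Others were nearest Wnt10 (96.7), the JAK/STAT ligand gene upd1 (95.4) and ptc, the Hedgehog receptor gene (80.9). Values in replicate 4 were above those in replicate 3 for all 4 of these summits.

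Genes of the ecdysone response were nearest to 7 members (1.69%), against 0.820% of the 5000 and 1.21% of the weaker intergenic summits, in an interval of 0.682 to 3.45. The strongest were 2 upstream of hid (85.5 and 75.5) and 2 upstream of Eip93F, which encodes a transcription factor of larval tissue remodelling (83.7 and 52.9). The stronger Eip93F summit had a signal value of 47.9 in replicate 3 and 31.3 in replicate 4, the reverse of the usual order, and the weaker had no match in replicate 4. Nuclear receptor genes, the family of dsf, were nearest to 2 members (0.483%), against 1.1% of the 5000 and 0.697% of the weaker intergenic summits, both inside the interval of 0.0586 to 1.73, and 2.57% of genic summits, which is above it. They were Eip75B, an ecdysone-induced receptor gene (58.1), and tll, the gene of the closely related receptor tailless, 9931 bp upstream (45.2), where replicate 3 had no match.

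Genes of fat body and metabolism were nearest to 2 members (0.483%), against 0.360% of the 5000 and 0.362% of the weaker intergenic summits, at Ldh, lactate dehydrogenase (56.1), and Thor, the translation repressor 4E-BP (52.3). A gene of neuronal guidance and adhesion was nearest to 1 member (0.242%), against 0.520% of the 5000 and 1.03% of the weaker intergenic summits. It was the netrin gene NetB (49.7). All these shares lie inside the intervals of the members' shares. The lists of cuticle, glia, gut digestion, hemocyte and immune, and muscle structure genes held 0 of 414, and a limit of 3 counts allows a share of up to 0.725% in each. Over all 5000 regions these 5 lists took 0% to 0.200%, so 0 is not below the background.

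Summits of the members were richer in A and T than the sequence beside them. Within 50 bp of the summit the sequence averaged 66.6% ± 8.14 A and T (SD over 414 regions), and equally long flanks, centred 300 bp away on both sides, 55.0% ± 8.53, a difference of 11.6 percentage points ± 12.9. The summit was the richer in 334 members (80.7%). The difference was 8.93 points in genic, 7.66 in promoter and 6.22 in weaker intergenic summits. Taking each replicate's own intergenic summits among its 5000 strongest gave 9.48 points in replicate 3 (480 regions) and 10.5 in replicate 4 (376), a mean of 9.98 ± 0.704 (SD, n = 2).

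The profile had a peak and a trough. It reached 68.1% at the centre of the members, dropped to 54.0% at distances of 410 bp upstream and 330 bp downstream in genome direction, and lay higher again farther out (58.0% at -990 bp), so part of the difference comes from flanks below the 58.4% median of sequence meeting the location rule. The rule for members did not use sequence.

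**Figure D5:**
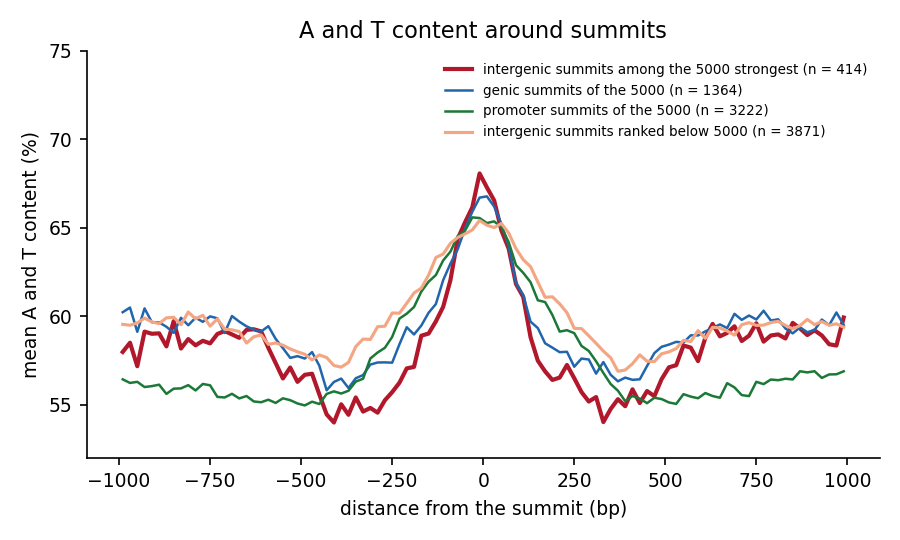
Mean A and T content (y axis, %) by distance from the summit (x axis, bp) for the 414 members (thick red), 1364 genic (blue), 3222 promoter (green) and 3871 weaker intergenic summits (orange). All 4 peak at the summit, and the members have the highest centre, 68.1%, and the lowest trough, 54.0%.

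When all hexamers were scanned, each counted together with its reverse complement, 150 (7.21%) were present at more member summits than flanks and 105 (5.05%) at fewer, at an adjusted p under 0.05 by two-sided exact McNemar tests with Benjamini-Hochberg adjustment. The members are regions of 1 pooled list and not replicates, so the test describes that list. Composition followed the split. Of 36 hexamers of A and T alone, 32 were in the higher set, as were 100 of 192 with exactly 1 G or C, and all 105 of the lower had 3 or more G or C. In the other classes, which hold more regions, more hexamers were called: 15.6% higher and 18.6% lower in genic, 17.6% and 27.6% in promoter, and 18.3% and 22.5% in weaker intergenic summits. Of the 150, 132 were also higher in genic, 141 in promoter and 143 in weaker intergenic summits. Of the 105, 66 were also lower in genic, 78 in promoter and 73 in weaker intergenic summits.

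AAATAT led the scan. It was within 50 bp of 152 member summits and in the flanks of 54. The odds ratio, over regions with the word at only one of these places, was 3.97 (95% interval 2.69 to 6.01, adjusted exact McNemar p = 1.06e-11). AATATA followed, at 24.4% of summits and 5.80% of flanks (odds ratio 4.67, adjusted exact McNemar p = 4.58e-10). Words with a C or G also rose, with AACTTA at 57 summits and 12 flanks (odds ratio 6.00, adjusted exact McNemar p = 1.59e-06). Of the higher words only CACTGA (47 against 13) and CTATGC (15 against 2) held 3 G or C. These words were singled out after their values were seen. At the other end, GCAACA was at 17 summits and 57 flanks, CTGGCC at 5 and 32, and CGCCCG at 0 and 18.

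Of 12 words chosen for known factors or core promoters, with earlier results of these data known, 2 passed the test. TAAATA was at 120 summits and 48 flanks (odds ratio 2.95, 95% interval 2.01 to 4.40, adjusted exact McNemar p = 6.87e-07). TATAAA, the TATA box core, was at 83 and 36 (odds ratio 2.57, 1.66 to 4.06, adjusted exact McNemar p = 0.000408), and that call was lost with flanks at 500 bp (1.67), in IDR-thresholded members alone (2.18) and outside repeats (1.92). AATTAA, a homeodomain core, was at 82 and 53 (odds ratio 1.69, adjusted exact McNemar p = 0.0579). The passing words and AATTAA were the only ones of the 12 that hold A and T alone. Of the 36 hexamers of that composition 32 were called higher, so the calls do not set the passing words apart from it. Whether a core promoter or a homeodomain site lies behind them was not tested.

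AAGTCA, the core site of tailless-group receptors, was at 20 member summits (4.83%) and in 15 flanks (3.62%). Its odds ratio was 1.33 (95% interval 0.649 to 2.80, adjusted exact McNemar p = 0.740), and the interval reaches 2.80. AGGTCA, a site of other nuclear receptors, was at 4 summits and 9 flanks. No difference passed the test for TATCGA (17 and 14), found in the replication-related promoter element DRE, for GAGAGA of the GAGA factor (16 and 20), for the E-boxes CAGCTG (8 and 9) and CACGTG (2 and 4), for the Zelda word CAGGTA (6 and 9), for TGACTC, of the AP-1 site (11 and 10), or for TTATCG, of GATA factors (19 and 16).

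TATCGA showed the largest gap from promoters. In promoter summits its odds ratio was 2.59, against 1.23 in members, a ratio of 0.475 (Fisher's exact test of discordant regions, p = 0.0584, adjusted over 12 words 0.701). None of the 12 words passed that comparison, which was added after seeing the data, and a p that misses the threshold does not show that members and promoters are alike.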

How the data were processed

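Wandering larvae of the dsf-GFP line were profiled by ChIP-seq in 2 biological replicates. Per the labels, the lists are on dm6 and dm3, and only dm6 was used here. The signal value of each region was computed by the authors, and the −log10 of each region's q-value was deposited beside it. The sources used here do not name an aligner, peak caller or normalization. The pooled and IDR-thresholded lists are deposited for the series, and each replicate has its own list. Regions on the arms were ranked by signal (ties by q-value, then position), and the first 5000 kept. Genes came from Ensembl release 115, without transposable elements, and coordinates count from 1. Location background was a grid of points every 100 bp. Intervals are exact Clopper-Pearson 95% intervals over regions and cover counting error only. The replicates are separate biosamples per the labels, and an SD over replicates rests on these 2.

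Sequence was read from the RefSeq release 6 genome, matched to the lists by arm, and no region ran past the end of its arm. Hexamers within 50 bp of summits were tested against flanks centred 300 bp away by exact McNemar tests (SciPy 1.17.1). Flanks are split over both sides, so they hold slightly fewer hexamer positions than the summit window. That tilts presence slightly toward summits, more so with smaller windows, and was not corrected. A test on simulated windows with the same split recovered 10 of 10 planted words. The simulated summits and flanks had the same composition, so that test does not cover calls made where summits are richer in A and T. Of 418 listed symbols 409 matched, 1 by hand (h as hry). Genes were named by rule: those nearest the 15 strongest members, the 10 best placed in both replicates, the genes with the most members, the strongest of each list, and those at the thresholds. Members and lists were chosen with earlier results of these data known. Alternatives changed the distance to a TSS, number of regions, match distance, window, flanks, repeats, annotation and replicate.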

Additional observations from a re-analysis of the deposited data

How the results depend on the processing

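No paired analysis was possible because the samples form 1 group. With 2500 or 10000 strongest regions the members numbered 187 and 951, and from 1 replicate's own list 376 to 480. The other settings gave 290 to 570 members. Matching within 50 or 200 bp put 32.4% and 48.6% of members among both replicates' strongest. The share was 90.3% in IDR-thresholded members, which that list's cut on pooled signal largely builds in. Hexamers called higher and lower numbered 56 and 7 with a window of 25 bp, 228 and 255 with 100 bp, 11 and 5 in IDR-thresholded members (124 regions), and 61 and 30 outside repeats (308 regions). From 1 replicate's list they numbered 114 to 115 higher and 53 to 110 lower, fewest lower without replicate 3. Of the 150 higher and 105 lower words, 93 and 28 were still called without replicate 3, 75 and 39 without replicate 4, 86 and 44 with flanks at 500 bp, 51 and 5 with a window of 25 bp, and 140 and 86 with 100 bp. All 150 and 105 kept their direction in every setting, except 149 of 150 in IDR-thresholded members and 103 of 105 without replicate 4. The settings reuse the same regions or the lists behind the pooled one, so a kept direction is largely built in. A higher word that no region held in its flanks alone counted as kept. Of the named words, 1 was called in IDR-thresholded members and 1 outside repeats. TAAATA passed in every setting. AATTAA passed with 100 bp windows (1.73), flanks at 500 bp (1.90) and without replicate 4 (1.91). The A and T difference was 12.5 and 9.96 points with windows of 25 and 100 bp, 10.01 with flanks at 500 bp, and 9.48 to 10.5 from 1 replicate. Counting the TSS on either side, gene lists took 28.0% of members. Without replicate 4 or 3, 3L held 33.96% to 37.2% of members. Without clusters of 5 or more, most of them on 3L, it held 28.3%. That setting was added after seeing the data and had to lower the share. The causes of these shifts were not tested, but fewer regions were tested in the smaller sets. Depth is unknown, so its limits cannot be given.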
